A study of Mus musculus with 15 samples.

Results

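The nuclear receptors are transcription factors whose ligand-binding domain lets small lipophilic molecules switch genes on or off. Members of the family were taken as the 46 mouse gene symbols of this class that were looked up in the deposited count table, out of 55341 genes in all. Every one of the 46 symbols was found, and 26 of them had enough counts to be tested, within 13085 tested genes. The cells were 6DT1, a mammary cancer line of FVB/N1 background, in which the chloride intracellular channel gene Clic4 was knocked out (KO) or left wild type (WT). The 15 libraries fell into 4 groups: 3 of KO cells given 1 µM hydrogen peroxide (H2O2), 4 of untreated KO cells, 4 of WT cells given the same peroxide dose, and 4 of untreated WT cells, with RNA taken at 24 h in every group. All groups shared the cell line and differed only in genotype and peroxide as far as the labels go. How many KO clones were used, and whether replicates were separate cultures, is not given in the labels. Every p-value therefore measures the spread between these samples, which may be partly technical. Without the number of clones, an effect of Clic4 loss cannot be told apart from a difference between clones.

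Steroid receptors such as the estrogen and glucocorticoid receptors bind DNA mostly as homodimers after leaving a chaperone complex, while the thyroid hormone, retinoic acid, vitamin D, PPAR, LXR and FXR receptors pair with a retinoid X receptor (RXR). Bound receptors recruit coactivators or corepressors, and several members without a classical hormone, such as the REV-ERB and ROR proteins, act inside the circadian clock. In mammary epithelium the estrogen and progesterone receptors drive growth of the gland, and the glucocorticoid receptor takes part in milk gene expression.

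The libraries held 12.31 to 16.03 M counts. Clic4 stood at 64.2 to 75.9 normalised counts per M (CPM) in the 7 KO libraries and at 313 to 327 CPM in the 8 WT libraries. WT replicate 9 is titled wild type while its genotype field reads knockout, and its Clic4 level of 326.7 CPM was that of the WT libraries. Luminal keratin genes Krt8 and Krt18 and the luminal factor Gata3 were expressed in all libraries, whereas the epithelial genes Epcam, Cdh1 and Elf5 had 0 to 2 counts per library. The 8 luminal markers summed to 953 to 1062 CPM in KO and 1033 to 1098 CPM in WT libraries, but the keratins differed in opposite directions. Krt18 stood at 147 to 175 CPM in KO and 332 to 349 CPM in WT, and Krt19 at 148 to 176 CPM in KO and 51.3 to 62.1 CPM in WT. The luminal factor Foxa1 had 1 to 4 counts per KO library and 0 to 2 per WT library. The 11 immune and blood markers summed to 270 to 309 CPM in KO and 388 to 432 CPM in WT libraries, nearly all of it Cd68. Without Cd68 the immune sum was 4.01 to 5.08 CPM in KO libraries and 1.28 to 2.50 CPM in WT libraries, except untreated WT replicate 9 with 50.8 CPM. That library had counts for 10 of the 11 immune markers, including 67 counts of the leukocyte gene Ptprc, of which the other libraries held 0 or 1. It also stood apart in the mural and fibroblast marker Pdgfrb, with 43 counts against 0 or 1 in the other libraries, and in the endothelial marker Pecam1, with 35 counts against 0 to 5. The 5 endothelial markers summed to 1.58 to 2.40 CPM in KO and 0.818 to 1.48 CPM in WT libraries, except replicate 9 with 3.51 CPM. Fibroblast markers summed to 11.3 to 14.0 CPM in KO and 16.9 to 22.4 CPM in WT libraries, mostly Pdgfra, while basal markers stayed under 0.62 CPM and adipocyte markers under 0.14 CPM. The part of these marker differences in the receptor results was not tested.

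In bulk RNA, fewer cells that express a gene and less RNA per cell cannot be told apart. A receptor was called expressed in a genotype when it reached 1 CPM in every library of it. By this rule 22 of 46 receptors were expressed in KO cells and 24 in WT cells, and 21 of these were shared. Thrb, Esr1 and Pparg were expressed in WT only, and Nr1h3 in KO only. Apart from Thrb, this set depends on the limit. At 1 RPKM only Thrb remained: Esr1 and Pparg reached at most 0.454 and 0.578 RPKM in WT. Nr1h3 had 0.463 RPKM in its lowest KO library. At 2 CPM Pparg and Nr1h3 dropped out and Nr4a1 (lowest WT library 1.37 CPM) became KO only. At 0.5 CPM Rora (lowest WT library 0.817 CPM) became WT only. Thrb had 0 counts in the 7 KO libraries, where 3 counts would correspond to 0.0301 CPM, while Esr1 and Pparg kept 6 and 25 counts over the same libraries.

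The 21 receptors expressed in both genotypes covered most branches of the family: Thra, Rara, Rarg, Ppard, Nr1d1, Nr1d2, Nr1h2, Nr1h4, Vdr, Rxra, Rxrb, Nr2c1, Nr2c2, Nr2f1, Nr2f2, Nr2f6, Esrra, Nr3c1, Nr4a1, Nr4a2 and Nr6a1. Another 8 were below the limit in both genotypes with at least 1 count in each: Rora, Ppara, Nr1i2, Nr1i3, Esrrg, Nr3c2, Nr4a3 and Nr5a1. Rorb, Rxrg and Esr2 had 0 counts in KO libraries and 1, 1 and 2 counts over all WT libraries. No count at all was found in either genotype for 10 receptors: Rarb, Hnf4a, Hnf4g, Nr2e1, Nr2e3, Esrrb, Pgr, Nr5a2, Nr0b1 and Nr0b2. For these 10 the limit of 3 counts corresponds to 0.0301 CPM over KO and 0.0254 CPM over WT libraries, by counting error only. The progesterone receptor gene Pgr and the liver factors Hnf4a and Hnf4g were among them.

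Levels of different genes were compared per length, as deposited RPKM. Rarg, the retinoic acid receptor gamma gene, was highest in both genotypes, with a median of 51.2 RPKM in KO and 66.0 RPKM in WT libraries. Vdr, the vitamin D receptor gene, followed with 31.9 RPKM in KO and 44.4 RPKM in WT, and Thra, for thyroid hormone receptor alpha, with 24.6 RPKM in KO and 25.7 RPKM in WT. These ranks rest on the lengths behind the deposited RPKM, which counts and RPKM put at 0.812 kb for Vdr, 1.61 kb for Rarg and 2.47 kb for Thra, the 3 shortest of the 26. Next in line in KO cells were Ppard (21.5 RPKM in KO, 18.4 in WT), the glucocorticoid receptor gene Nr3c1 (20.1 in KO, 19.2 in WT) and Nr1h2, encoding LXR beta (18.9 in KO, 21.2 in WT). The libraries of Ppard, Nr3c1 and Nr1h2 overlapped in RPKM within each genotype. Within single libraries Ppard was above Nr3c1 and Nr1h2 in every KO library, and Nr1h2 above Ppard in every WT library. The other pairs changed order between libraries, and all orders rest on the lengths. By CPM, which uses no length, Vdr was not second: it had 23.2 to 27.0 CPM in KO and 31.4 to 38.6 CPM in WT libraries. Nr3c1 had 161 to 188 CPM in KO and 157 to 178 CPM in WT libraries.

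**Figure D1:**
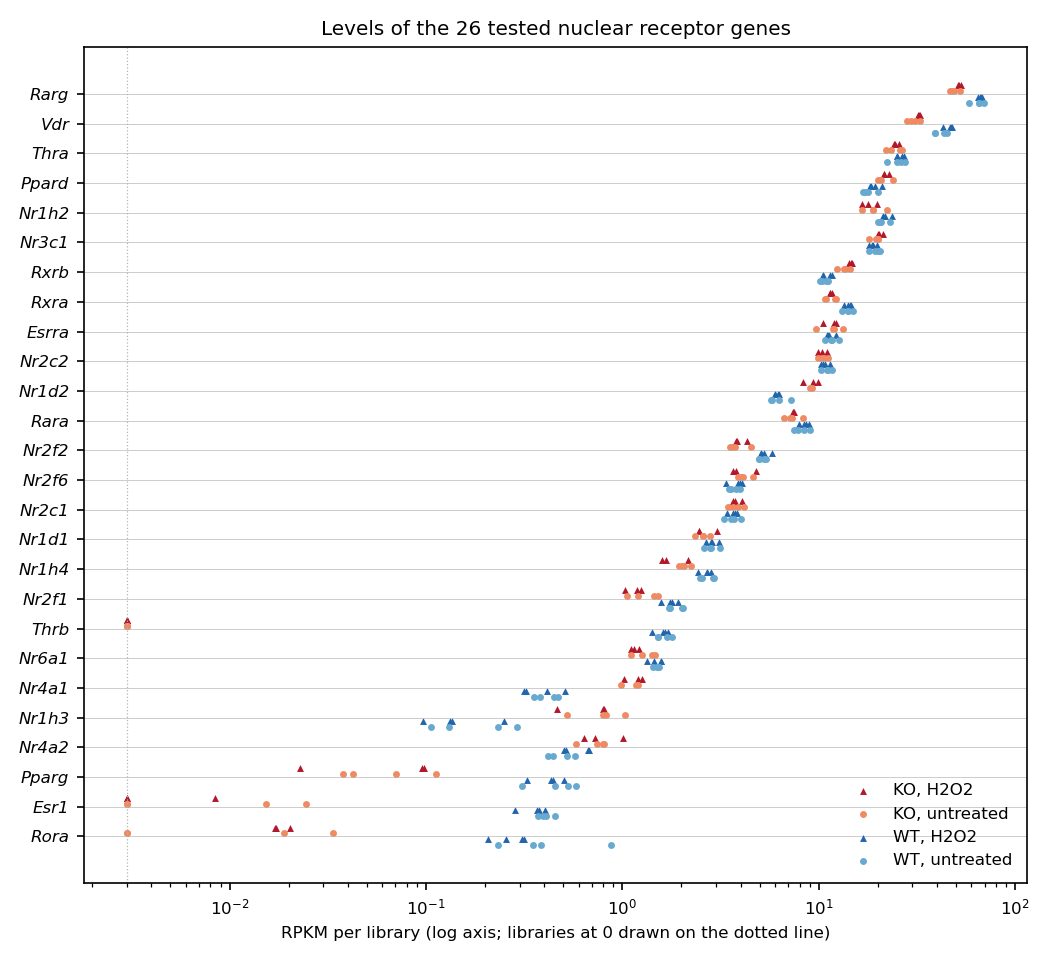
Deposited RPKM (log axis) of the 26 tested receptor genes, 1 symbol per library, with KO in red and orange and WT in blue; libraries at 0 are drawn on the dotted line. Rarg and Vdr lead by RPKM in all groups. In the rows of Thrb, Esr1, Rora and Pparg the KO libraries lie to the left of the WT libraries.

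Does the family differ between KO and WT cells without peroxide? In untreated cells 6 receptors were higher and 10 lower in KO, and 10 of the 26 tested did not pass the test. That is 61.5% of tested receptors, against 66.8% of all genes tested in the same comparison (33.9% higher and 32.9% lower), so the share was near the background. The median log2 fold change of the receptors was −0.11, against 0.00 over all genes, and the median size was 0.36, against 0.30. A change of at least 2-fold was found in 6 of the 26 (23.1%), against 13.3% of all genes. Of these, 4 (Thrb, Esr1, Rora and Pparg) had at most 0.401 CPM in any KO library. They had enough counts to be tested only through the WT libraries, where they are high. The 2-fold share therefore gives no result about the family. Replicate values did not overlap between genotypes for 16 receptors, and for 58.5% of all genes.

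**Figure D2:**
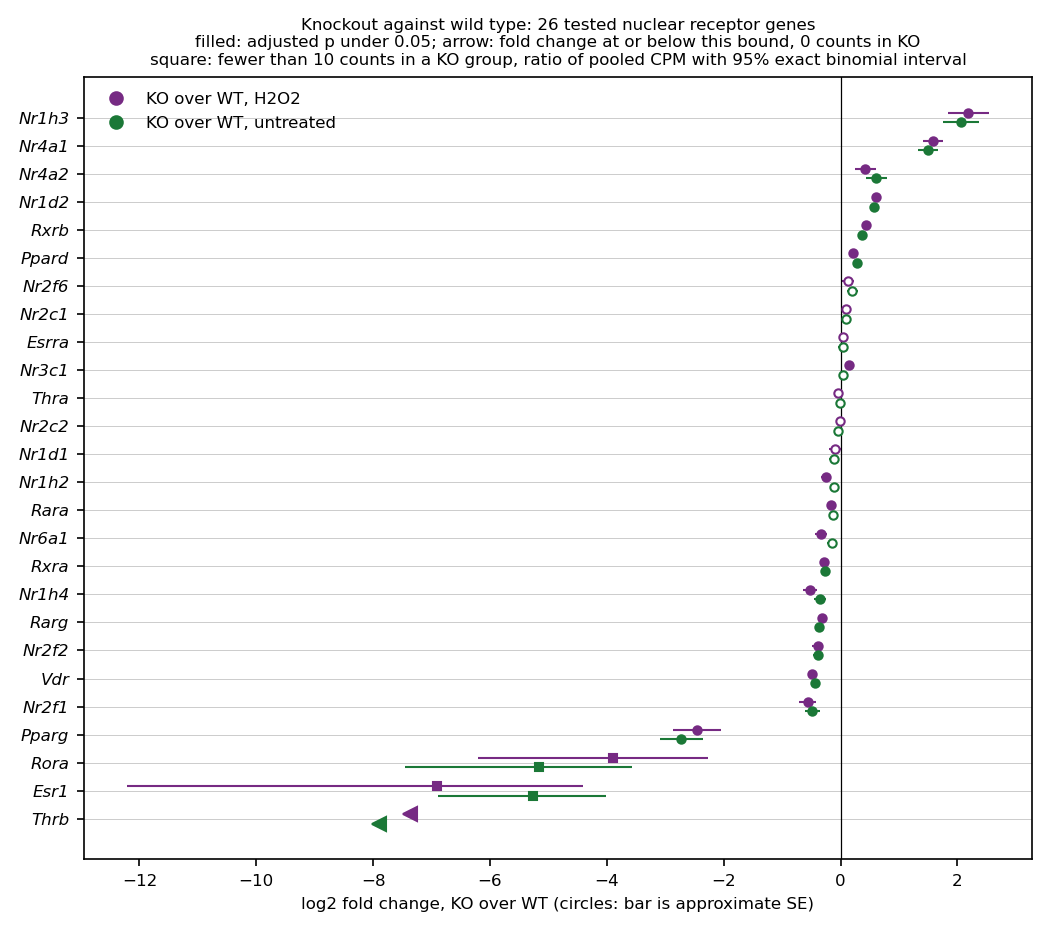
Log2 fold change, KO over WT, of the 26 tested receptors with peroxide (purple) and without (green); circles carry approximate standard errors, squares are CPM ratios with 95% exact binomial intervals, and arrows for Thrb mark bounds. Nr1h3 and Nr4a1 lie above 1 in both comparisons, and Pparg, Rora, Esr1 and Thrb below −2.

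The 6 receptors that differed by 2-fold or more were Thrb, Esr1, Rora and Pparg, lower in KO, and Nr1h3 and Nr4a1, higher in KO. Their upstream promoter sequence is shown because these are the genes on which the comparison turns. The stretches run 5′ to 3′ from base 250 to base 101 before a RefSeq start (build GRCm38.p6, 150 bases each) and lie outside annotated exons. For Esr1 and Pparg the start used was the second listed. Capitals mark CG dinucleotides.
Thrb: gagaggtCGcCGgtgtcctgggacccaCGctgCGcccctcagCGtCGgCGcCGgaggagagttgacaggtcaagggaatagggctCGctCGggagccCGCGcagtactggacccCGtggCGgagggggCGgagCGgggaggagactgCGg
Esr1: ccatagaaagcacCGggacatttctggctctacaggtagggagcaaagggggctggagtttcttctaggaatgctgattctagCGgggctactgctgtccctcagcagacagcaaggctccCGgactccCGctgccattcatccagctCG
Pparg: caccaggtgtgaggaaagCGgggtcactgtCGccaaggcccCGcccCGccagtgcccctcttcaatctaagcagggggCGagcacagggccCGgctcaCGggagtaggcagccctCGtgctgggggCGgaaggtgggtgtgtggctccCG
Rora: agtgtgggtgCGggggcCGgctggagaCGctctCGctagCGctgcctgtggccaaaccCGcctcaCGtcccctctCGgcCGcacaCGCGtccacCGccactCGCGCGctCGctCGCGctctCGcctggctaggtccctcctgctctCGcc
Nr1h3: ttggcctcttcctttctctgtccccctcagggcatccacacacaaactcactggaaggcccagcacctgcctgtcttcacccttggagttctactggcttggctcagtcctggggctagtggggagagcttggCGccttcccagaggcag
Nr4a1: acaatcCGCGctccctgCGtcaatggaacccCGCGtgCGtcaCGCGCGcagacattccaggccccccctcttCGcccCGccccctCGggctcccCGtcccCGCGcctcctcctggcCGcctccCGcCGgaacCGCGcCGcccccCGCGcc

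These stretches are chr14:17660710-17660859 (plus strand) for Thrb, chr10:4709908-4710057 (plus) for Esr1, chr6:115362099-115362248 (plus) for Pparg, chr9:68653536-68653685 (plus) for Rora, chr2:91195217-91195366 (minus) for Nr1h3 and chr15:101266596-101266745 (plus) for Nr4a1. As printed, Nr4a1 held 23 CG dinucleotides, Rora 20, Thrb 17, Pparg 10, Esr1 5 and Nr1h3 1. Other listed starts gave other counts: 1 for Thrb, 1 and 23 for Pparg, 3 for Esr1 and 7 for Nr1h3. The order of these genes by CG content therefore depends on the start used. Of all 32851 promoter stretches cut the same way, 93.6% had fewer than the printed Thrb stretch and 16.0% had fewer than the printed Nr1h3 stretch. The core hexamer that many nuclear receptors bind, AGGTCA, or TGACCT on the other strand, was found in 8.47% of all stretches and in 4 of the 63 stretches of the 42 receptors in the table (6.35%). Those 4 belonged to Thrb, Rarg, Nr1h4 and Nr0b1.

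**Figure D3:**
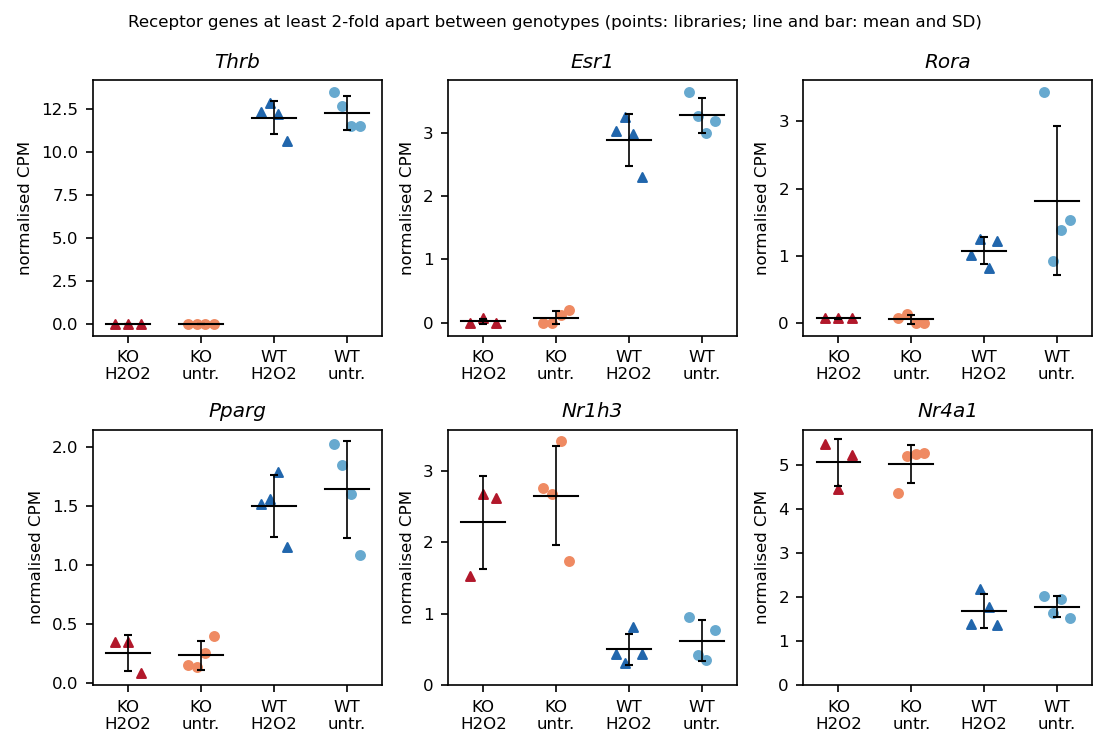
Normalised CPM of the 6 receptor genes at least 2-fold apart between genotypes, KO columns left of WT columns, with libraries as points and mean and SD as line and bar. KO and WT columns are separate in every panel, and the single high Rora point at 3.44 CPM is untreated WT replicate 9.

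Among steroid receptors, Esr1, which encodes estrogen receptor alpha (chr10:4611593-5005614, mm10), had 0, 0, 0.127 and 0.200 CPM in untreated KO libraries, against 3.65, 3.26, 2.99 and 3.19 CPM in untreated WT libraries. Peroxide-treated libraries had 0, 0.0687 and 0 CPM in KO, against 3.02, 3.24, 2.97 and 2.30 CPM in WT. Every KO library lay below every WT library. The untreated KO/WT ratio of pooled CPM was 0.0261 (95% exact binomial interval 0.0084 to 0.0621), from 5 KO counts (edgeR quasi-likelihood adjusted p = 2.67e-12). With peroxide the ratio was 0.0084 (0.0002 to 0.0473), from 1 KO count (edgeR adjusted p = 3.94e-11). These intervals overlap and cover counting error only. The fitted log2 fold change was −5.91 without untreated KO replicate 4, against −5.12 with it, and −8.40 without treated KO replicate 7, against −6.46 with it. Replicate 7 held the only count of its group.

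Nr3c1 encodes the glucocorticoid receptor and was the steroid receptor with the most counts. It averaged 174 ± 8.46 CPM in untreated KO and 170 ± 9.17 CPM in untreated WT libraries (SD, n = 4 each), a log2 fold change of 0.03 with an approximate 95% interval of −0.05 to 0.12 that did not pass edgeR's test (adjusted p = 0.502). With peroxide it was 178.8, 177.1 and 187.5 CPM in KO, against 172.6, 164.5, 162.3 and 157.6 CPM in WT. All 3 KO libraries were above the 4 WT libraries, and the difference passed the test at a small size (log2 0.14, SE 0.046, edgeR adjusted p = 0.00934). Without KO replicate 8 the adjusted p was 0.0587. The mineralocorticoid receptor gene Nr3c2 had 1 count in KO and 8 counts in WT libraries, and the estrogen receptor beta gene Esr2 had 0 in KO and 2 in WT.

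Both common RXR genes, whose proteins are partners for many other receptors, differed between genotypes in opposite directions. Rxra had 50.3, 51.0, 56.6 and 56.6 CPM in untreated KO, against 64.4, 64.0, 60.2 and 68.9 CPM in untreated WT. Rxrb had 56.3, 57.4, 60.4 and 51.3 CPM in untreated KO, against 42.7, 44.4, 41.7 and 45.8 CPM in untreated WT. Neither gene's KO and WT libraries overlapped. The log2 fold change was −0.26 for Rxra (SE 0.050, edgeR adjusted p = 4.19e-05) and 0.37 for Rxrb (SE 0.053, adjusted p = 5.89e-07), and with peroxide −0.28 and 0.43. In RPKM, Rxrb made up 54.0% ± 2.51 of the RXR sum in untreated KO and 43.1% ± 0.614 in untreated WT libraries (SD, n = 4 each). Rxrg, the third RXR gene, had 1 count in all.

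Of the thyroid hormone receptor genes, Thrb was the gene most sharply divided by genotype. It lies at chr14:17660261-18038090 (mm10, plus strand). Thrb had 0 counts in every KO library, against 13.5, 12.7, 11.5 and 11.5 CPM in untreated WT and 12.3, 12.8, 12.2 and 10.6 CPM in peroxide-treated WT libraries. Taking 3 counts over the group as the limit, it was at least 239.1-fold lower in untreated KO cells and at least 165.2-fold lower in treated KO cells (edgeR adjusted p = 4.71e-18 and 9.42e-17). Its paralog Thra, the more abundant of the pair, had 58.6, 55.7, 66.4 and 64.8 CPM in untreated KO, against 64.2, 61.0, 55.0 and 67.7 CPM in untreated WT. Those Thra libraries overlapped, with a log2 fold change of −0.01 and an approximate 95% interval of −0.13 to 0.10. Thrb therefore supplied 0% of the summed RPKM of the pair in KO and 6.08% ± 0.569 in untreated WT (SD, n = 4). Like the other subfamily shares, this rests on the lengths behind the deposited RPKM, here 7.6 kb for Thrb and 2.47 kb for Thra. Exons of Thra overlap those of Nr1d1 on the opposite strand. The kit was stranded per the labels, but the strand setting of the counting is not given in the sources used here. Whether reads from the shared stretch were kept apart is therefore not known. In all, 13 of the 46 receptor genes share exonic bases with another annotated gene, among them Nr2c2, Nr2f6, Esrra and Nr1i3.

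Within 1000 kb of Thrb there were 5 tested neighbours in the untreated comparison, with log2 fold changes of −0.29 to 0.58. The cause of the Thrb difference was not tested. The receptor gene Nr1d2, 166.0 kb away, was among the 2 that were higher in KO, with Rpl15, and Ube2e1 was the 1 that was lower. Rarb, 841.1 kb from Thrb, had no counts. Around Rora 7 neighbours were tested, 1 of them lower (Vps13c, log2 −0.32). Around Pparg 20 were tested, 6 higher and 7 lower, with log2 fold changes of −1.225 to 0.562. The other 3 receptors at least 2-fold apart had 11 tested neighbours (Esr1), 26 (Nr1h3) and 29 (Nr4a1), with both directions among those called. Their log2 fold changes ran from −0.963 to 3.67 around Esr1, −3.619 to 2.397 around Nr1h3 and −1.136 to 5.545 around Nr4a1. Of all genes tested, 66.8% were called in this comparison.

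Retinoic acid receptor genes were lower in KO where they passed. Rarg had 76.0, 79.8, 85.8 and 78.1 CPM in untreated KO, against 104.4, 111.0, 93.8 and 105.4 CPM in untreated WT. The 2 sets of libraries did not overlap (log2 −0.37, SE 0.045, edgeR adjusted p = 3.58e-08), and with peroxide the log2 fold change was −0.33. Rara, encoding the alpha form, did not pass without peroxide (log2 −0.13, approximate 95% interval −0.25 to 0.00, adjusted p = 0.0823), although it did when KO replicate 3 or WT replicate 11 was left out (adjusted p = 0.00673 and 0.0212). With peroxide Rara had 35.4, 35.6 and 35.9 CPM in KO, against 39.5, 42.1, 37.6 and 40.7 CPM in WT, and passed (log2 −0.17, edgeR adjusted p = 0.0357). Leaving out any KO library, or WT replicate 14 or 16, ended that call, with adjusted p of 0.0662 to 0.0991.

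Vdr, the receptor for active vitamin D, had 27.0, 24.5, 23.2 and 25.4 CPM in untreated KO, against 31.4, 31.5, 36.5 and 35.3 CPM in untreated WT. After peroxide it had 26.1, 26.7 and 26.9 CPM in KO, against 34.6, 37.2, 38.6 and 38.2 CPM in WT. All KO libraries were below all WT libraries (log2 −0.43, SE 0.062, edgeR adjusted p = 6.57e-07 untreated; log2 −0.48, adjusted p = 3.97e-07 with peroxide).

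PPAR genes, whose proteins sense fatty acids, were divided. Pparg, the adipogenic member (chr6:115360951-115490399, mm10), had 0.153, 0.137, 0.253 and 0.401 CPM in untreated KO, against 2.03, 1.84, 1.60 and 1.08 CPM in untreated WT. In treated cells it had 0.347, 0.343 and 0.0818 CPM in KO, against 1.51, 1.56, 1.78 and 1.15 CPM in WT. KO libraries were below WT libraries throughout (log2 −2.73, SE 0.37, edgeR adjusted p = 1.97e-07 untreated; log2 −2.46, adjusted p = 6.25e-06 with peroxide). Ppard, the ubiquitous member, was higher in KO: 78.5, 76.9, 90.1 and 75.4 CPM in untreated KO, against 63.0, 65.7, 62.1 and 74.1 CPM in untreated WT. The lowest KO library lay just above the highest WT library (log2 0.28, SE 0.059, edgeR adjusted p = 0.000233), and the log2 fold change was 0.21 with peroxide. Ppara, the liver-type member, had 1 count over KO and 2 over WT libraries, and Ppard made up 99.7% of the PPAR RPKM sum in untreated KO and 97.4% in untreated WT.

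Nr1h3, which encodes the oxysterol receptor LXR alpha (chr2:91184061-91202834, mm10, minus strand), was higher in KO. It had 2.76, 2.67, 3.42 and 1.74 CPM in untreated KO, against 0.945, 0.425, 0.348 and 0.765 CPM in untreated WT. With peroxide it had 1.53, 2.68 and 2.62 CPM in KO, against 0.441, 0.311, 0.817 and 0.431 CPM in WT. No KO library overlapped a WT library (log2 2.07, SE 0.31, edgeR adjusted p = 1.11e-06 untreated; log2 2.19, adjusted p = 3.73e-06 with peroxide). The LXR beta gene Nr1h2 still supplied most of the pair, 96.0% of summed RPKM in untreated KO and 99.1% in untreated WT. Nr1h2 itself had 65.6, 55.4 and 59.6 CPM in treated KO, against 69.4, 69.3, 71.6 and 77.4 CPM in treated WT (log2 −0.26, edgeR adjusted p = 0.00964; 0.0608 without KO replicate 7), and did not pass without peroxide (log2 −0.11). It did pass untreated when KO replicate 3 was left out (adjusted p = 0.00628). An annotated same-strand transcript, Gm13783, overlaps Nr1h3 exons, so reads of that stretch could be shared between them.

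Nr1h4, for the bile acid receptor FXR, was found at low level and lower in KO: 7.81, 6.85, 7.15 and 7.01 CPM in untreated KO, against 9.86, 9.92, 8.49 and 8.67 CPM in untreated WT (log2 −0.36, SE 0.10, edgeR adjusted p = 0.00344). With peroxide the log2 fold change was −0.53. The xenobiotic receptor genes Nr1i2 (2 counts in KO, 1 in WT) and Nr1i3 (12 in KO, 29 in WT) had too few counts to be tested.

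The REV-ERB genes encode heme-binding repressors that act in the clock, and their partners in that loop, the ROR genes, encode activators of the same DNA elements. Nr1d2, for REV-ERB beta, had 59.7, 58.7, 58.7 and 58.4 CPM in untreated KO, against 36.6, 39.4, 45.7 and 36.1 CPM in untreated WT. Its KO libraries were all above the WT libraries (log2 0.58, SE 0.061, edgeR adjusted p = 2.19e-09), also with peroxide (log2 0.61, adjusted p = 4.52e-09). Nr1d1, for REV-ERB alpha, did not pass in untreated cells (log2 −0.11, approximate 95% interval −0.29 to 0.07) or with peroxide (log2 −0.10), and its reads can overlap those of Thra. Nr1d2 made up 78.0% ± 1.21 of the pair's RPKM in untreated KO and 68.6% ± 3.14 in untreated WT (SD, n = 4 each).

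Rora, the ROR alpha gene (chr9:68653786-69388246, mm10), was nearly absent from KO. It had 0.0766, 0.137, 0 and 0 CPM in untreated KO, against 3.44, 0.921, 1.39 and 1.53 CPM in untreated WT. With peroxide it had 0.0695, 0.0687 and 0.0818 CPM in KO, against 1.01, 1.25, 0.817 and 1.22 CPM in WT. The highest KO library was below the lowest WT library, and the WT library at 3.44 CPM was replicate 9, in which immune and endothelial markers also stood apart; their part in the Rora value was not tested. The KO/WT ratio of pooled CPM, from 3 KO counts each time, was 0.0280 (95% exact binomial interval 0.0057 to 0.0841) untreated and 0.0675 (0.0136 to 0.206) with peroxide (edgeR adjusted p = 2.25e-08 and 2.56e-05). Without WT replicate 9 the untreated difference still passed (adjusted p = 3.34e-08), and without KO replicate 2, which held 2 of the 3 counts, the fitted log2 fold change was −5.87 in place of −4.94. An antisense transcript, Gm15511, overlaps Rora exons, and without the strand setting of the counting it is not known whether its reads were kept apart. Rorb had 0 counts in KO and 1 in WT.

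The NR4A genes are immediate-early genes whose receptors have no classical hormone. Of the 3, Nr4a1 and Nr4a2 were called higher in KO in both comparisons, Nr4a2 narrowly with peroxide. Nr4a1, for NUR77 (chr15:101254269-101274795, mm10), had 4.37, 5.20, 5.25 and 5.27 CPM in untreated KO, against 2.03, 1.63, 1.95 and 1.53 CPM in untreated WT. With peroxide it had 5.49, 4.46 and 5.24 CPM in KO, against 1.38, 2.18, 1.78 and 1.37 CPM in WT. KO and WT libraries were separate in both comparisons (log2 1.50, SE 0.17, edgeR adjusted p = 5.97e-09 untreated; log2 1.58, adjusted p = 9.87e-09 with peroxide).

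Nr4a2, for NURR1, had 3.14, 4.38, 4.30 and 4.01 CPM in untreated KO, against 2.77, 3.05, 2.23 and 2.36 CPM in untreated WT. These groups were separate, with the lowest KO library close to the highest WT library (log2 0.61, SE 0.17, edgeR adjusted p = 0.00273). With peroxide Nr4a2 had 3.89, 3.43 and 5.40 CPM in KO, against 3.52, 3.55, 2.67 and 2.73 CPM in WT, so the groups overlapped. That difference passed narrowly (log2 0.42, SE 0.18, edgeR adjusted p = 0.0432) and was lost without KO replicate 5 (adjusted p = 0.0505) or 8 (0.331), without WT replicate 15 (0.108) or 16 (0.105), without the filter on low counts (0.0574) and in DESeq2 (0.0784). Nr4a1 supplied 60.7% ± 1.50 of the NR4A sum of RPKM in untreated KO and 45.5% ± 5.20 in untreated WT (SD, n = 4 each). Nr4a3, for NOR1, had 6 counts in KO and 4 in WT.

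**Figure D4:**
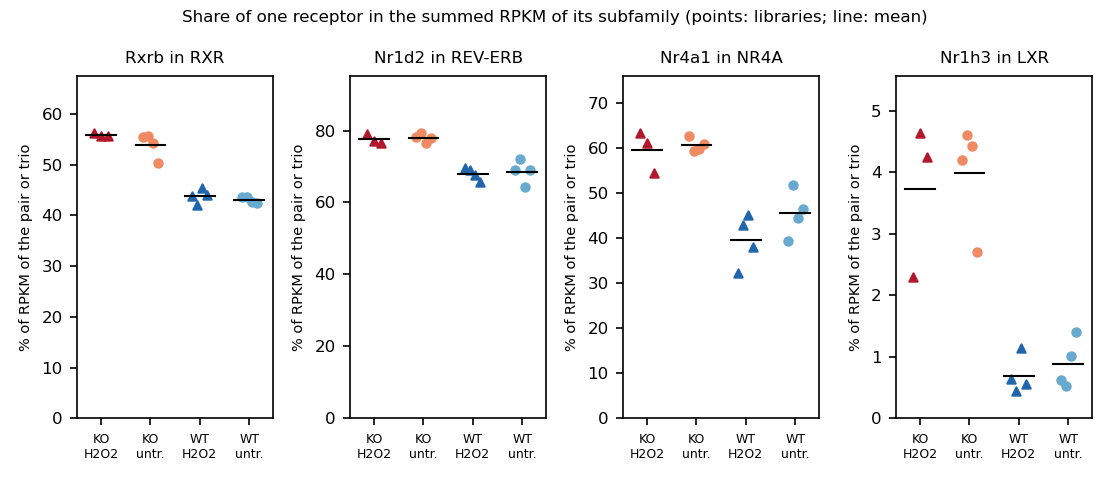
Share of Rxrb, Nr1d2, Nr4a1 and Nr1h3 in the summed RPKM of its subfamily (percent), KO columns left of WT columns, with libraries as points and means as lines. Rxrb makes up 54.0% in untreated KO and 43.1% in untreated WT, and the other 3 shares are also higher in KO; the 4 genes were chosen after their values were seen and the shares carry no test.

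The COUP-TF genes Nr2f1 and Nr2f2, whose proteins repress or modulate other receptors, were lower in KO. Nr2f1 had 4.14, 3.63, 5.19 and 4.94 CPM in untreated KO, against 6.82, 5.74, 6.75 and 5.87 CPM in untreated WT (log2 −0.49, SE 0.13, edgeR adjusted p = 0.00142). Nr2f2 had 9.73, 10.3, 9.94 and 12.4 CPM in untreated KO, against 13.2, 13.3, 14.5 and 14.2 CPM in untreated WT (log2 −0.38, SE 0.087, adjusted p = 0.000325). Neither overlapped between genotypes, and with peroxide the log2 fold changes were −0.56 and −0.39. Each has an antisense transcript over its exons (A830082K12Rik and B130024G19Rik), with the same limit as above. The related Nr2f6 just missed the test (log2 0.20, adjusted p = 0.0553), and passed without KO replicate 1 (adjusted p = 0.0428) or WT replicate 12 (0.0464).

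The testicular receptor genes Nr2c1 (log2 0.09, approximate 95% interval −0.06 to 0.23) and Nr2c2 (log2 −0.04, −0.13 to 0.05) and Esrra, for the estrogen-related receptor alpha that acts on mitochondrial genes (log2 0.04, −0.11 to 0.19), did not pass in untreated cells. With peroxide they did not pass either, nor did Thra, Nr1d1 and Nr2f6. Nr6a1, for germ cell nuclear factor, did not pass untreated (log2 −0.15). It had 9.52, 8.99 and 8.67 CPM in treated KO, against 12.1, 12.1, 10.3 and 11.3 CPM in treated WT, all KO below WT (log2 −0.34, SE 0.10, edgeR adjusted p = 0.00442). Esrrg, for the estrogen-related receptor gamma, had too few counts for the test: 7 in untreated KO and 34 in untreated WT, a ratio of 0.208 (95% exact binomial interval 0.0777 to 0.476). With peroxide it had 0 counts in KO and 22 in WT, at least 5.09-fold lower with 3 counts as the limit. Nr5a1, the steroidogenic factor 1 gene 8.8 kb from Nr6a1, had 4 counts in KO and 12 in WT.

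With peroxide 7 receptors were higher and 13 lower in KO, 76.9% of the 26, against 65.4% of all genes (33.0% higher and 32.4% lower). A change of at least 2-fold was again found in 6 (23.1%, against 13.9% of all genes), and 19 did not overlap between genotypes (66.4% of all genes). The 2-fold share carries the same limit as without peroxide, since Thrb, Esr1, Rora and Pparg were again among the 6. The peroxide and untreated genotype comparisons use separate libraries, but of the same KO and WT cells and in the same fit. Shared calls are therefore not an independent repeat of the genotype effect. All 16 receptors called without peroxide were called in the same direction with it, 100% of the untreated list and 80% of the peroxide list, which holds 20. Over all genes the 7656 shared calls in the same direction were 87.5% of the untreated list and 89.5% of the peroxide list. The 4 receptors called with peroxide alone were Rara, Nr1h2 and Nr6a1, lower, and Nr3c1, higher, and the interaction test found no receptor whose genotype effect differed between treatments (smallest edgeR adjusted p = 0.867).

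Peroxide itself moved no receptor past the test. In KO cells 0 of 26 were called by edgeR's quasi-likelihood test, against 7 of all genes (0.0535%, all of them lower). In WT cells 0 of 26 were called, against 2 of all genes (0.0153%, with 0.00764% higher and 0.00764% lower). No receptor had separate treated and untreated libraries, against 7.71% of all genes in KO and 3.81% in WT. DESeq2 also called 0 receptors in both genotypes. The smallest adjusted p among receptors was 0.650 in KO and 0.715 in WT. At an unadjusted p under 0.05 there were 0 receptors and 1041 genes in KO, and 2 receptors and 847 genes in WT. Those 2 were Vdr (log2 0.14) and Rora (log2 −0.76), and the Rora libraries overlapped, from 0.817 to 1.25 CPM with peroxide and from 0.921 to 3.44 CPM without. For the interaction edgeR called 0 receptors and 0 genes, with 0 receptors and 808 genes at an unadjusted p under 0.05, and DESeq2 called 0 receptors.

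Partners and target genes of the receptors were counted over lists, which were drawn up with earlier results of these data known. Their counts stand against 33.9% of all tested genes higher and 32.9% lower in untreated KO (66.8% called). With peroxide these shares were 33.0% higher and 32.4% lower. Of 22 coactivator and corepressor genes, all tested, 5 were higher and 8 lower in untreated KO (median log2 −0.06, all genes 0.00). Ncoa1, for the steroid receptor coactivator SRC-1, averaged 4.90 ± 0.663 CPM in untreated KO and 23.6 ± 2.10 CPM in untreated WT (SD, n = 4 each; log2 −2.26, edgeR adjusted p = 7.65e-18). Ppargc1a, the PGC-1 alpha coactivator of PPAR and estrogen-related receptors, had 0 counts in KO libraries, at least 67.4-fold lower untreated and 52.7-fold lower with peroxide. Pprc1 and the arginine methyltransferase gene Carm1 were higher (log2 0.51 and 0.47).

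Of 12 chaperones that hold steroid receptors, 8 were higher and 2 lower in untreated KO (median log2 0.25). Hsp90ab1, an HSP90 gene, was higher by log2 0.31, its cochaperone Stip1 by 0.34 and Hspa8 by 0.70. Fkbp5, which binds HSP90 and is itself a glucocorticoid target, averaged 152 ± 5.07 CPM in untreated KO and 85.8 ± 2.96 CPM in untreated WT (SD, n = 4 each; log2 0.82, edgeR adjusted p = 6.41e-17).

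Glucocorticoid target genes were higher in KO in 13 of the 15 tested, of 19 listed, and lower in 0 (median log2 0.71, all genes 0.00). Besides Fkbp5 they included the metallothionein gene Mt2 (247 ± 11.3 CPM in untreated KO and 135 ± 5.14 CPM in untreated WT, SD, n = 4 each), glutamine synthetase Glul (log2 0.71) and the phosphatase gene Dusp1 (log2 1.00). Errfi1 (log2 0.07) and Tsc22d3 (log2 0.04) did not pass. With peroxide 14 of the 15 were higher and 0 lower (median 0.67), against 33.0% of all genes higher and 32.4% lower. Per1 and Klf9 of this list are also in the clock and thyroid hormone lists. Nr3c1 did not pass in the untreated comparison. In peroxide-treated against untreated KO cells 1 gene of this list, the metallothionein Mt1, was lower (169 ± 4.88 CPM treated, n = 3, and 201 ± 10.9 CPM untreated, n = 4, SD; log2 −0.25, edgeR adjusted p = 0.0241). That call was lost in 4 of the 7 fits that left out a KO library: untreated replicate 4 (adjusted p = 0.0625) or treated replicate 5 (0.0695), 7 (0.141) or 8 (0.189). No gene of the other lists passed for peroxide in either genotype.

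Circadian clock genes, without the receptors, were 10 higher and 5 lower of 16 tested (18 listed; median log2 0.41, all genes 0.00), against 33.9% of all genes higher and 32.9% lower. Cry2, a repressor of the loop, averaged 14.4 ± 0.717 CPM in untreated KO and 2.62 ± 0.770 CPM in untreated WT (SD, n = 4 each; log2 2.46, edgeR adjusted p = 7.27e-14). Per2, another repressor, was higher by log2 1.82 and the output gene Dbp by 1.16, while the activator gene Clock was lower (log2 −0.78). Time of day at harvest is not given in the labels.

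Of thyroid hormone genes 3 were higher and 3 lower of 6 tested (12 listed): Bcl3, higher (log2 3.10), Klf9, higher (log2 0.42), the malic enzyme gene Me1, lower (log2 −0.48), and the deiodinase gene Dio2, lower, with 2 counts in untreated KO and 41 in untreated WT. Retinoid supply and target genes were 3 higher and 3 lower of 6 tested (19 listed). Fabp5, a fatty acid binding protein gene that can deliver retinoic acid to PPAR delta, averaged 0.259 ± 0.166 CPM in untreated KO and 11.5 ± 0.951 CPM in untreated WT (SD, n = 4 each; log2 −5.43, edgeR adjusted p = 2.41e-18). Crabp2, which delivers it to the retinoic acid receptors, was higher (log2 3.60, from 90 counts in untreated KO and 7 in untreated WT), as was Dhrs9 (log2 0.43), and Rdh10 was lower (log2 −0.91).

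PPAR targets were 3 higher and 5 lower of 12 tested (24 listed). The lipoprotein lipase gene Lpl averaged 1.78 ± 0.482 CPM in untreated KO and 50.5 ± 1.59 CPM in untreated WT (SD, n = 4 each; log2 −4.81, edgeR adjusted p = 1.01e-25), and the lipid droplet gene Plin2 was lower by less (log2 −0.37), while Acadm and Cpt1a, of fatty acid oxidation, were higher (log2 0.27 and 0.28). LXR and FXR targets were 2 higher and 6 lower of 11 tested in untreated KO (17 listed), and 2 higher and 3 lower with peroxide. The 2 higher were the phospholipid transfer gene Pltp (log2 1.39) and Srebf1 (log2 0.30). Scd2 was lower (log2 −0.27), and Smpdl3a had 0 counts in untreated KO, at least 22.5-fold lower.

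Estrogen and progesterone targets were 3 higher and 4 lower of 9 tested (19 listed). The keratin gene Krt18 and cathepsin D gene Ctsd were lower (log2 −1.12 and −0.84), and Igfbp4 and the growth factor gene Areg were higher (log2 0.74 and 1.20). Of 3 tested vitamin D genes (13 listed), Spp1 and Cd14 were higher (log2 1.81 and 0.59), while Cyp24a1, the hormone-degrading enzyme gene, did not pass (log2 0.13, adjusted p = 0.540). Steroid synthesis and metabolism genes were 4 higher and 3 lower of 8 tested (17 listed). Cyp11a1, which cuts the cholesterol side chain, averaged 61.3 ± 4.89 CPM in untreated KO and 0.507 ± 0.251 CPM in untreated WT (SD, n = 4 each; log2 6.89, edgeR adjusted p = 3.59e-26). Hsd17b7 was also higher (log2 1.26), and Hsd17b4 and Srd5a3 were lower (log2 −0.46 and −0.27).

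**Figure D5:**
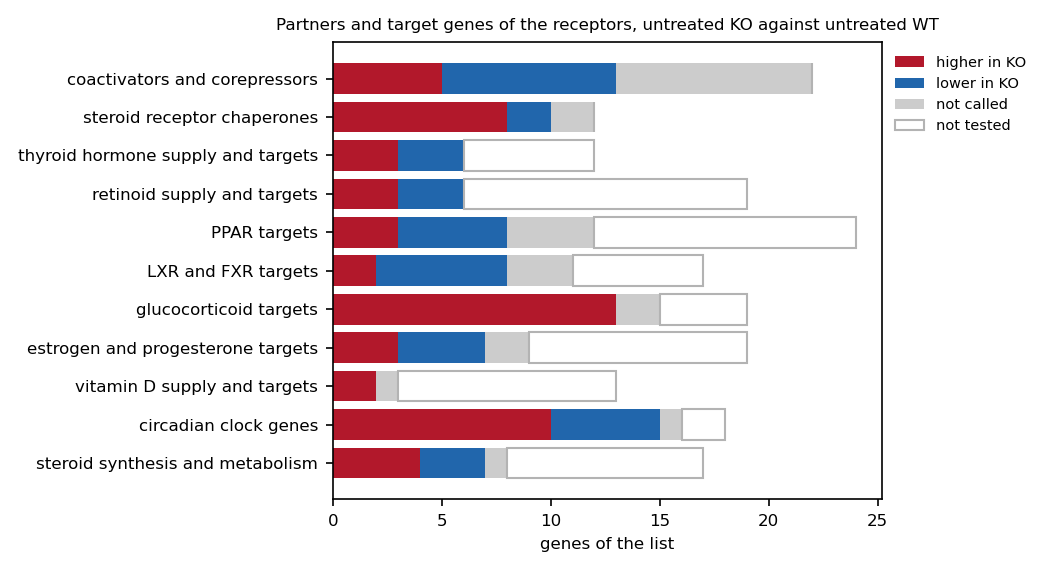
Number of genes in each list of receptor partners and targets that were higher, lower, not called or not tested in untreated KO against untreated WT. The glucocorticoid list has 13 genes higher and 0 lower, and most other lists hold both directions.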

How the data were processed

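Polyadenylated RNA was sequenced from 15 libraries with a stranded kit, per the labels. The deposited count table holds expected counts, given as whole numbers, and a second deposited table gives RPKM, scaled by length and library size. The submitters' processing notes name cutadapt, STAR, RSEM and mm10, without versions or settings. Members and lists were chosen with earlier results of these data known.

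Counts were tested with edgeR 4.0.16 (R 4.3.3): filterByExpr (13085 genes kept), TMM scaling and 1 quasi-likelihood fit over the 4 groups with 11 residual degrees of freedom. Benjamini-Hochberg adjustment ran over the 13085 tested genes, with a threshold of 0.05. Standard errors were derived from the fit's F statistic, and 95% intervals are the fold change ± 2 SE. Groups came from sample titles, and 0 columns lacked a sample. Replicates differed beyond counting error (chi-square per degree of freedom 2.07 to 8.13 over 21 pairs). All members were described, and of each list up to 4 called genes with the smallest adjusted p. The script was tested on simulated counts. RLE scaling, DESeq2 1.42.0, no filter, fits on 2 groups and each library left out were alternatives. Positions are from GENCODE M21 and promoters from RefSeq GRCm38.p6.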

Additional observations from a re-analysis of the deposited data

Results flagged for a closer look

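In 78 sets of 4 libraries, the 26 tested receptors in each of the 3 groups of 4, a single library far from the other 3 was found in 2. Chance flags about 1 in 20 such sets. Nr4a1 was 4.37 CPM in untreated KO replicate 1, against 5.20 to 5.27 CPM in the other 3 untreated KO libraries. Esrra, for the estrogen-related receptor alpha, was 30.2 CPM in peroxide-treated WT replicate 16, against 27.0 to 27.5 CPM in the other 3 treated WT libraries.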

How the results depend on the processing

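No paired analysis was possible because no replicate number is shared by any 2 groups. With all libraries kept, the counts of receptors called in the genotype comparisons stayed within 1.5 times under RLE scaling, DESeq2, no filter and 2-group fits. Leaving out 1 library at a time gave 6 to 7 higher and 10 to 12 lower untreated, and 5 to 7 higher and 12 to 13 lower with peroxide; without untreated WT replicate 9 the untreated counts were 6 and 10, and every list kept its counts, an alternative chosen after seeing the data, as was leaving out each KO library for Mt1. Receptors expressed were 22 in KO and 24 in WT in each leave-one-out run, and 19 and 20 at 1 RPKM. All genes called for peroxide in KO numbered 7, but 27 without the filter, 61 in DESeq2 and 0 to 18 leaving out a library. In WT they numbered 2, but 12, 8 and 0 to 13, and 0 in the 2-group fit. For the interaction they numbered 0, but 5, 17 and 0 to 3. Among receptors that had not passed, leaving out a library turned the sign of Thra (log2 −0.075 to 0.031), Esrra (−0.036 to 0.12) and Nr3c1 (−0.011 to 0.062) untreated, and of Nr2c2 (−0.053 to 0.020) and Nr2f6 (−0.013 to 0.21) with peroxide. The cause of these changes was not tested. Depth limits the low receptors: Esr1 and Rora rest on 1 to 5 KO counts per group.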
